A study of Arabidopsis thaliana with 12 samples.

Results

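In seedlings of Arabidopsis thaliana, 54 of 27655 genes (0.195%) were higher after 3'-propyl ABA while ABA itself and 3'-butyl ABA left them close to the DMSO level. They were chosen from the measured values: the mean log2(TPM + 1) had to be at least 1.5 above DMSO with 3'-propyl ABA and less than 0.5 away from DMSO, in either direction, with ABA and with 3'-butyl ABA, and every 3'-propyl ABA library had to lie above the other 9. TPM, the deposited unit, is a gene's share of all transcripts scaled to the same total in each library, and a difference of 1 on the log2(TPM + 1) scale is close to a doubling for genes well above 1 TPM and understates the fold below that. The choice used all 12 libraries, so the levels and differences of these genes are a description and carry no test. The genes include GPAT3, NRT1.8 and PLDP2, of glycerolipid synthesis, nitrate transport and phospholipid cleavage, together with calcium-binding proteins, transcription factors and the kinase MKK9.

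The series compared 3'-propyl ABA, ABA and 3'-butyl ABA, each at 10 µM, with the DMSO solvent, 3 libraries per treatment and 12 in all. All were wild-type Col-0 seedlings grown at 22 °C under continuous light in wells of liquid medium, and each treatment lasted 6 h. The sample labels give an age of 8 days and the series text 7 days. Several seedlings shared a well, nothing in the labels says that the 3 libraries of a treatment came from separate cultures, and p-values below therefore measure the spread between libraries, which may be technical.

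Abscisic acid (ABA) is the plant hormone of drought, salt and seed dormancy responses. Its PYR/PYL receptors, once they hold ABA, bind and block clade A PP2C phosphatases, which frees SnRK2 kinases to activate the AREB/ABF transcription factors. These bind promoter elements with an ACGTG core. The derivatives, as their names say, carry a propyl or a butyl group at the 3' position. Markers of a whole seedling were present in all treatments, with the summed level of 7 phloem genes between 186 and 370 TPM and that of 9 guard cell genes between 94.7 and 134 TPM over the 12 libraries. A higher level in whole seedlings can come from more RNA per cell or from more cells that express the gene, and these cannot be told apart here.

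The promoters of the 5 members with a RefSeq symbol, a DMSO mean of at least 1 TPM and the largest difference are shown because these genes lead the results and their windows differ in the elements they hold. Each runs from 250 bases before to 50 bases after the annotated gene start, 5′ to 3′ on the gene's strand, from RefSeq (TAIR10.1). Capitals mark ACGTG or its complement CACGT (the core of ABA response elements), TTGAC or GTCAA (the core of the W-box that WRKY factors bind) and CGCGT or ACGCG (the core bound by CAMTA factors, which are calmodulin-regulated).
GPAT3 promoter, chr4:846765-847064, minus strand: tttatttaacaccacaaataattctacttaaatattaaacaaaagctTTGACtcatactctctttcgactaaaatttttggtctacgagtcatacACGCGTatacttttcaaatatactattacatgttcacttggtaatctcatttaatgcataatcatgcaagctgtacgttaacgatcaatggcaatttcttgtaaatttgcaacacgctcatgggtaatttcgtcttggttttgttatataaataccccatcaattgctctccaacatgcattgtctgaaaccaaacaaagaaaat
NRT1.8 promoter, chr4:11519756-11520055, minus strand: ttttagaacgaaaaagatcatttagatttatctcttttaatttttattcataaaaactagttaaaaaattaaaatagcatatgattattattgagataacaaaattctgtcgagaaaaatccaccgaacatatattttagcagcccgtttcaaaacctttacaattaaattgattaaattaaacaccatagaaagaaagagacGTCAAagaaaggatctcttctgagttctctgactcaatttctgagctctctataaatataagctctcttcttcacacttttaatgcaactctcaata
PLDP2 promoter, chr3:1634944-1635243, plus strand: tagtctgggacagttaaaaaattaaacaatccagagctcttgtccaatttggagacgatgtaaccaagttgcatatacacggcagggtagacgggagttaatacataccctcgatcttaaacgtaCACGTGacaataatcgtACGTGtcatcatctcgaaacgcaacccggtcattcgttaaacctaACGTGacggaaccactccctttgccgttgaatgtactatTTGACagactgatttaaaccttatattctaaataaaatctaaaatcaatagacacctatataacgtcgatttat
LSU3 promoter, chr3:18373098-18373397, minus strand: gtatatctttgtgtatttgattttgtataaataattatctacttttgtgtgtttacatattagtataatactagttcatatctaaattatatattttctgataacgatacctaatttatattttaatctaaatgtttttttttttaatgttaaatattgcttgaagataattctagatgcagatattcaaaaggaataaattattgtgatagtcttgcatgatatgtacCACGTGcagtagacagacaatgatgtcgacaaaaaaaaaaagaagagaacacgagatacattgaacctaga
CML23 promoter, chr1:24771344-24771643, minus strand: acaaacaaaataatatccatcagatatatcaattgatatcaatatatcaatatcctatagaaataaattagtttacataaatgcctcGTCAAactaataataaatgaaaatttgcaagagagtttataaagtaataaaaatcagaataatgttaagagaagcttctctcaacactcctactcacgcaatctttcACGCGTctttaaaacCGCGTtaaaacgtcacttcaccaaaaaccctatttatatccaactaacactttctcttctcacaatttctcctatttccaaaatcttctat
The PLDP2 window held 4 ABA element cores and the LSU3 window 2, both counted on either strand, so that the palindrome CACGTG counts as 2. The windows of GPAT3, NRT1.8 and CML23 held 0. CAMTA cores stood in the GPAT3 and CML23 windows, 2 and 3 of them, where ACGCGT counts as 2. A W-box core stood once in each window other than that of LSU3. A match is a description of the letters and no evidence that a factor binds there.

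Members were a small corner of a much wider response to 3'-propyl ABA. ABA and 3'-butyl ABA both kept within 0.5 of DMSO in 69.5% of all genes, and the condition on 3'-propyl ABA was the rarer one. That share is over all 27655 genes, of which 19528 averaged 1 TPM or more. Genes listed at or near 0 meet this bound whatever the treatment does. Of all genes, 1318 (4.77%) were at least 1.5 higher with 3'-propyl ABA than with DMSO, 2961 (10.7%) had every 3'-propyl ABA library above the other 9, and 945 (3.42%) met both conditions. Of these 945 genes, 528 were also at least 1 above DMSO with both ABA and 3'-butyl ABA, and the 54 members made up 5.71%. ABA moved 67 of the 945 by at most 0.5 in either direction, 225 by 0.5 to 1 upward, 412 by 1 to 2 and 232 by more than 2, and 9 were lower by 0.5 or more. In the plot of the 945 genes the members lie in a band around 0 that runs without a gap into the genes to its right, and a few genes lie to its left. A further 13 genes kept to the bound with ABA but not with 3'-butyl ABA, and 66 did so with 3'-butyl ABA but not with ABA.

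**Figure D1:**
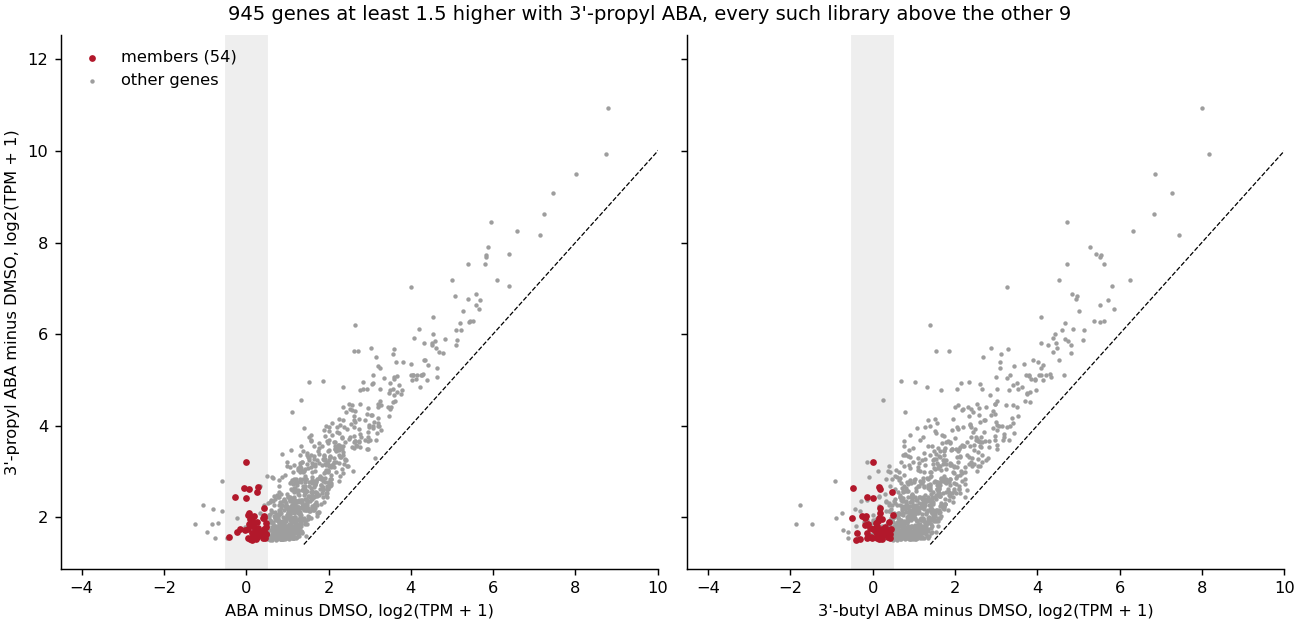
Each point is 1 of the 945 genes that were at least 1.5 higher with 3'-propyl ABA than with DMSO and had every 3'-propyl ABA library above the other 9. The y axis is 3'-propyl ABA minus DMSO and the x axis ABA minus DMSO (left) or 3'-butyl ABA minus DMSO (right), both as differences of mean log2(TPM + 1). Red points are the 54 members, the grey band is the bound of 0.5 and the dashed line marks equal differences. The members lie in the band, between 1.50 and 3.21 on the y axis, with most other genes to the right and 9 to the left of it in each panel.

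The thresholds cut through genes with near-equal values. BME3 and NRAMP6 entered with differences of 1.50 and 1.52 between 3'-propyl ABA and DMSO, and AT5G66070 and ELF4-L1 stayed out at 1.47 each. On the ABA bound AT2G46600 and PP2-A11 entered at 0.49 and 0.48, and AT2G38920 and AT4G37530 stayed out at 0.51 each. With 3'-butyl ABA, AT2G16630 entered at -0.50 and AT4G16820 at 0.49, while MYB77 and AT1G52565 stayed out at 0.51 and 0.54. PEPC1 met the 3 bounds but 1 library of another treatment reached 5.02 TPM, above its lowest 3'-propyl ABA value of 4.82 TPM, and AT1G06475 was listed at 0 in at least 1 library of 3'-propyl ABA.

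Over the 54 members the difference between 3'-propyl ABA and DMSO ran from 1.50 to 3.21 with a median of 1.73. It lay between 1.5 and 1.75 for 30 members, between 1.75 and 2 for 12, between 2 and 2.5 for 7 and above 2.5 for 5. ABA minus DMSO had a median of 0.22 and ran from -0.42 to 0.49, and 3'-butyl ABA minus DMSO had a median of 0.13 and ran from -0.50 to 0.49. Within these bounds ABA was above DMSO in 46 members, below in 6 and equal in 2, and every ABA library lay above every DMSO library in 10. Among all genes averaging 1 TPM or more that separation held for 23.9%. 3'-butyl ABA was above DMSO in 36 members and below in 16. Complete separation upward held in 6, against 29.4% of all genes averaging 1 TPM or more. Complete separation downward held in 4, for which no share over all genes was computed. Since the choice bounded both differences, nothing is read from these counts. Directly between compounds, 3'-propyl ABA exceeded ABA by 1.10 to 3.21 (median 1.52) and 3'-butyl ABA by 1.14 to 3.21 (median 1.69).

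Library by library, the mean log2(TPM + 1) over the members was 4.85, 5.15 and 5.0 with 3'-propyl ABA, against 3.30, 3.44 and 3.28 with ABA, 3.24, 3.18 and 3.26 with 3'-butyl ABA and 2.93, 3.16 and 3.34 with DMSO. The 3'-propyl ABA libraries stood above all others, as the choice requires, so nothing is read from that gap. Within the 3'-propyl ABA treatment, replicate 2 held the highest value of 34 members and replicate 1 the lowest of 38. Among the DMSO libraries, replicate 1 held the lowest value of 30 members and replicate 3 the highest of 31. The median SD of log2 values between DMSO libraries was 0.26 for members and 0.13 for all genes averaging 1 TPM or more. The heat map shows DMSO replicate 1 as the lowest DMSO library in single genes such as NRT1.8, ACS7 and AT5G52750. The highest was replicate 3 in NRT1.8 and ACS7 and replicate 2 in AT5G52750.

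**Figure D2:**
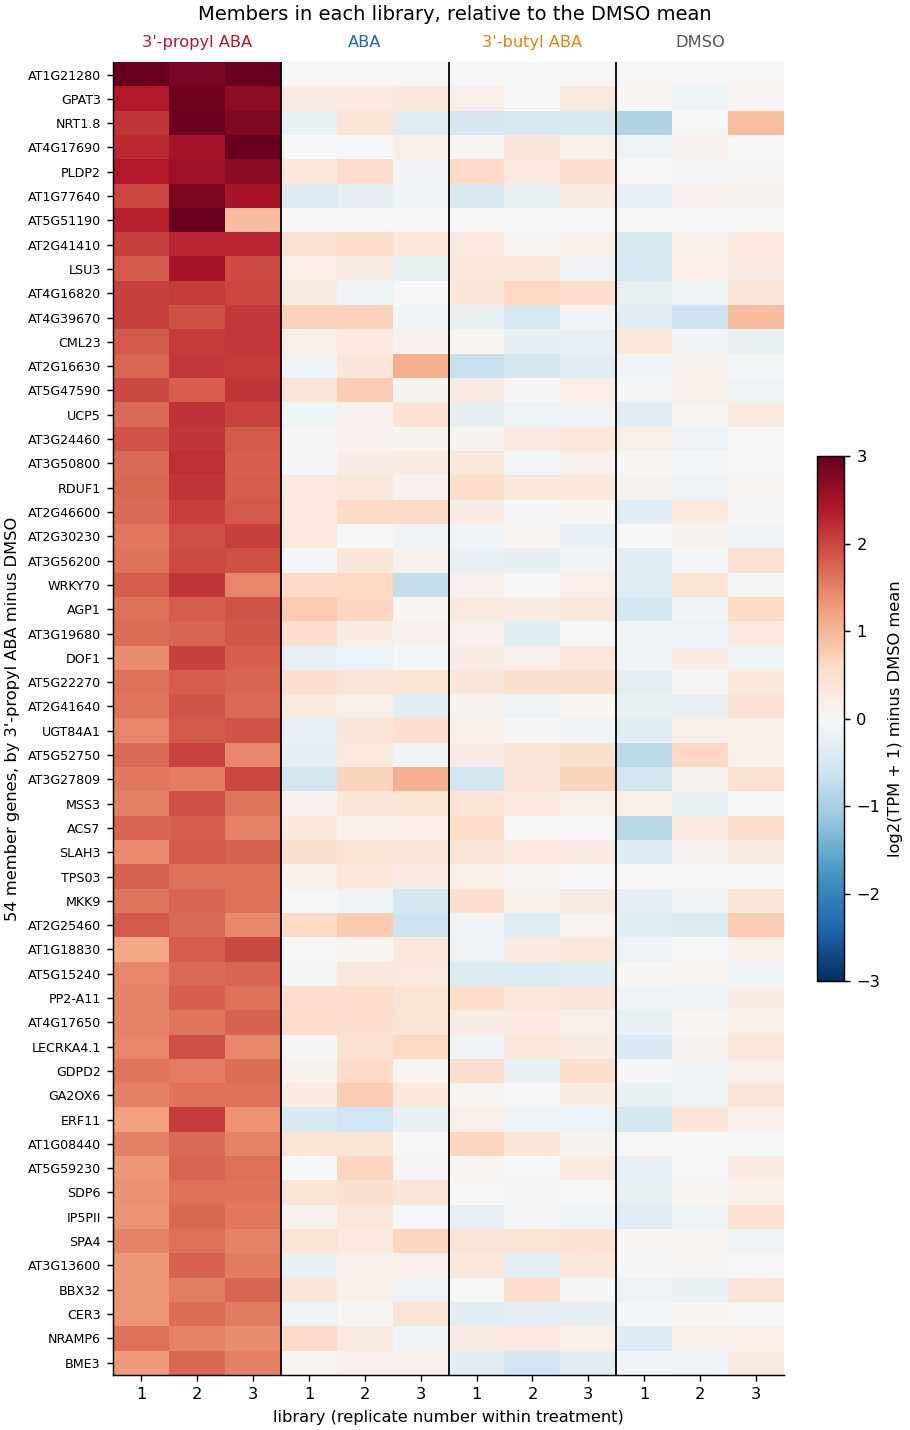
Each row is 1 of the 54 members, ordered by 3'-propyl ABA minus DMSO, and each column 1 library, grouped by treatment from 3'-propyl ABA on the left to DMSO on the right. Colour is log2(TPM + 1) minus the gene's DMSO mean, from blue (-3) to red (3). The 3 left columns are red in every row, as the choice requires. Their means over the members were 4.85, 5.15 and 5.0, against 2.93 to 3.44 in the other 9 libraries. DMSO replicate 1 is bluer than the other DMSO libraries in 30 rows where it holds the lowest value.

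Libraries of 1 treatment differed in cell type markers. DMSO replicate 1 had the highest mean log2(TPM + 1) of 8 endodermis markers among DMSO libraries, 3.64 against 2.56 and 2.63. ABA replicate 3 had 4.09 over 10 embryo and seed markers, against 2.52 and 3.19 in the other ABA libraries. On the same markers 3'-propyl ABA replicate 2 had 1.36, against 2.58 and 3.01 in the other 3'-propyl ABA libraries, with summed levels between 59.2 and 501 TPM in that treatment. ABA replicate 1 had 3.46 over the endodermis markers, against 2.77 and 2.48 in the other ABA libraries. On these markers 3'-propyl ABA replicate 1 had 2.86, against 2.38 and 2.45 in replicates 2 and 3. With 3'-butyl ABA replicate 3 was the highest, at 3.77 against 3.73 and 3.41. No marker list holds a member. Of 9 guard cell markers 2 rose and 6 fell with 3'-propyl ABA (limma, below), with a summed level of 119 to 124 TPM with 3'-propyl ABA, 101 to 134 TPM with ABA, 129 to 133 TPM with 3'-butyl ABA and 94.7 to 106 TPM with DMSO. Of 7 xylem markers 4 rose and 0 fell, with sums of 156 to 179 TPM with 3'-propyl ABA, 147 to 202 TPM with ABA, 190.0 to 250.1 TPM with 3'-butyl ABA and 117 to 129 TPM with DMSO. Of 8 endodermis markers 1 rose and 3 fell with 3'-propyl ABA, of 6 tested embryo and seed markers 1 rose and 0 fell, of 2 tested pollen and anther markers 0 rose and 1 fell, and of 8 root hair and 6 tested phloem markers 0 were called. Over all genes 27.5% rose and 38.5% fell with 3'-propyl ABA. Of the guard cell markers 1 rose and 3 fell with ABA, and 2 rose and 4 fell with 3'-butyl ABA. Of the xylem markers 6 rose and 0 fell with ABA and likewise with 3'-butyl ABA. Of the endodermis markers 1 rose and 0 fell with either, and 2 phloem markers rose with ABA and 4 with 3'-butyl ABA. LEC1 and MS1, which define the embryo and the tapetum, were listed at 0 in all 12 libraries. Without 3'-propyl ABA replicate 2, which held the highest value of 34 members, the rule gave 46 genes, of which 45 were among the 54. Without ABA replicate 1 it gave 51, of which 49 were among them, and without both DMSO replicate 1 and ABA replicate 3 it gave 47, of which 35 were. Leaving out any 1 library gave between 46 and 71 genes, and 22 of the 54 stayed in the set under each of these 12 omissions. The part of cell composition in the members' values was not tested.

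Genes of glycerolipids and membrane lipids were among the members with the largest differences. GPAT3 (AT4G01950, chromosome 4, 844342 to 846814, minus strand in TAIR10.1), a member of the glycerol-3-phosphate acyltransferase family that puts the first acyl chain on glycerol-3-phosphate, measured 154, 217 and 190.0 TPM in the 3'-propyl ABA libraries, against 34.2, 34.2 and 36.2 TPM with ABA, 33.1, 28.1 and 34.3 TPM with 3'-butyl ABA and 29.6, 25.7 and 30.4 TPM with DMSO. The 9 other libraries lay within 25.7 to 36.2 TPM, and the lowest 3'-propyl ABA library was above them by more than their whole range. Its mean was 6.54 times the DMSO mean, and the log2 differences from DMSO were 2.66 with 3'-propyl ABA, 0.28 with ABA and 0.15 with 3'-butyl ABA. PLDP2 (phospholipase D zeta 2, AT3G05630, chromosome 3, 1635194 to 1640357, plus strand) cleaves phosphatidylcholine to phosphatidic acid and is known from phosphate starvation. It had 34.9, 38.8 and 43.3 TPM with 3'-propyl ABA, against 7.51, 8.98 and 5.39 TPM with ABA, 9.05, 7.39 and 8.69 TPM with 3'-butyl ABA and 5.84, 5.55 and 5.99 TPM with DMSO. DMSO and 3'-butyl ABA libraries did not overlap, and this gene was close to the 3'-butyl ABA bound at 0.46. 

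Other lipid genes followed at lower levels or smaller differences. AT4G16820, of the DAD1-like lipase family, had 4.24, 4.39 and 4.06 TPM with 3'-propyl ABA, against 0.528, 0.157 and 0.2498 TPM with ABA, 0.613, 0.944 and 0.787 TPM with 3'-butyl ABA and 0.08201, 0.136 and 0.634 TPM with DMSO, so that its other 9 libraries all lay below 1 TPM. AT4G39670, a glycolipid transfer protein gene, had 48.9, 44.6 and 51.9 TPM with 3'-propyl ABA, against 18.5, 18.7 and 10.4 TPM with ABA, 9.32, 7.73 and 10.5 TPM with 3'-butyl ABA and 8.59, 6.92 and 22.4 TPM with DMSO, where DMSO replicate 3 stood well above the other DMSO libraries. AT3G24460, a Serinc-domain gene, averaged 12.3 ± 1.58 TPM with 3'-propyl ABA and 2.400 ± 0.414 TPM with DMSO (SD, n = 3 each, as for all means of members here). Its annotation overlaps AT3G24463 on the same strand over 1359 bases, and reads could not be assigned with certainty there. AT4G17650, a lipid transport family gene, averaged 87.4 ± 8.29 and 27.9 ± 3.99 TPM with 3'-propyl ABA and DMSO. GDPD2, a glycerophosphodiester phosphodiesterase gene, averaged 20.3 ± 1.05 and 6.02 ± 0.6301 TPM. SDP6, the mitochondrial glycerol-3-phosphate dehydrogenase that lets seedlings use glycerol from stored oil, averaged 87.5 ± 9.43 TPM with 3'-propyl ABA, 39.02 ± 1.73 TPM with ABA and 29.3 ± 3.95 TPM with DMSO. CER3, needed for the alkane-forming branch of cuticular wax synthesis, had 216, 275 and 253 TPM with 3'-propyl ABA, against 76.3, 87.1 and 111 TPM with ABA, 67.1, 69.6 and 71.1 TPM with 3'-butyl ABA and 82.4, 88.9 and 85.6 TPM with DMSO, and its 3'-butyl ABA libraries were all below its DMSO libraries.

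Transporters of nitrate, anions and organic acids formed another group. NRT1.8 (AT4G21680, chromosome 4, 11517353 to 11519805, minus strand), which takes nitrate out of the xylem sap, had 60.3, 105 and 93.9 TPM with 3'-propyl ABA, against 10.9, 17.2 and 9.62 TPM with ABA, 8.75, 8.84 and 8.96 TPM with 3'-butyl ABA and 6.32, 12.9 and 24.6 TPM with DMSO. The DMSO libraries covered the whole range of the ABA and 3'-butyl ABA libraries. The lowest 3'-propyl ABA library was above the highest DMSO library, as the choice requires. The log2 differences from DMSO were 2.63, -0.06 and -0.48 with 3'-propyl ABA, ABA and 3'-butyl ABA. SLAH3, an anion channel of the SLAC1 family that passes nitrate and chloride, had 80.1, 109 and 103 TPM with 3'-propyl ABA, against 41.7, 39.7 and 39.3 TPM with ABA, 38.7, 36.7 and 35.5 TPM with 3'-butyl ABA and 22.3, 32.04 and 36.1 TPM with DMSO. DMSO replicate 1 was its lowest library. UCP5 (AT2G22500), a mitochondrial dicarboxylate carrier also named DIC1, had 154, 215 and 195 TPM with 3'-propyl ABA, against 42.6, 51.2 and 63.1 TPM with ABA, 38.4, 41.8 and 43.2 TPM with 3'-butyl ABA and 36.5, 49.5 and 56.8 TPM with DMSO, and the ranges of the last 3 treatments overlapped. The amino acid transporter family genes AT3G56200 and AT5G15240 averaged 90.1 ± 10.4 and 25.5 ± 2.64 TPM with 3'-propyl ABA, and 25.1 ± 7.33 and 7.48 ± 0.653 TPM with DMSO. NRAMP6, a metal ion transporter gene, averaged 27.7 ± 2.64 TPM with 3'-propyl ABA and 9.16 ± 2.17 TPM with DMSO. Its span overlaps CCR1 on the opposite strand over 516 bases. AT5G52750, of the heavy metal transport and detoxification superfamily, had 37.6, 48.1 and 31.8 TPM with 3'-propyl ABA and 5.99, 17.4 and 12.4 TPM with DMSO.

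Calcium-binding proteins were 4 of the members, and a calmodulin-binding protein was the fifth of their class. Such sensors bind calcium through EF-hand loops and pass the signal to target proteins. AT2G41410 (an EF-hand protein, chromosome 2, 17261728 to 17263017, minus strand) was the most abundant member, with 425, 503 and 503 TPM with 3'-propyl ABA, against 138, 149 and 128 TPM with ABA, 126, 108 and 115 TPM with 3'-butyl ABA and 73.9, 115 and 126 TPM with DMSO. AT2G46600, of the same kind, had 211, 269.7 and 231 TPM with 3'-propyl ABA, against 78.9, 96.5 and 96.1 TPM with ABA, 74.9, 62.8 and 66.5 TPM with 3'-butyl ABA and 50.2, 79.3 and 65.9 TPM with DMSO. In both, DMSO replicate 1 was the lowest of the 12 libraries. MSS3 had 143, 192 and 152 TPM with 3'-propyl ABA, against 53.8, 64.2 and 65.6 TPM with ABA, 66.2, 61.01 and 54.9 TPM with 3'-butyl ABA and 56.1, 43.2 and 49.5 TPM with DMSO. CML23 (AT1G66400), a calmodulin-like protein known from nitric oxide levels and flowering time, was lower throughout, with 19.4, 23.4 and 23.9 TPM with 3'-propyl ABA, against 5.48, 5.99 and 5.23 TPM with ABA, 4.99, 3.71 and 3.86 TPM with 3'-butyl ABA and 6.12, 4.41 and 3.89 TPM with DMSO. Its ABA and DMSO libraries overlapped, and its ABA libraries were all above its 3'-butyl ABA libraries. The calmodulin-binding family gene AT3G13600 averaged 9.29 ± 1.61 TPM with 3'-propyl ABA and 2.51 ± 0.116 TPM with DMSO. By the words of the annotation these 5 genes were 9.26% of the members, against 0.658% of all genes, a comparison that rests on a class drawn up with the members known.

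Kinases and ethylene-related genes came next. MKK9 (AT1G73500), a MAP kinase kinase known from ethylene and camalexin synthesis, had 55.4, 60.4 and 57.1 TPM with 3'-propyl ABA, against 17.6, 15.9 and 11.8 TPM with ABA, 25.2, 19.9 and 21.1 TPM with 3'-butyl ABA and 14.05, 16.5 and 22.8 TPM with DMSO. Its ABA mean was below and its 3'-butyl ABA mean above DMSO, within overlapping ranges. ACS7, one of the ACC synthases that make the ethylene precursor, had 8.88, 9.16 and 7.196 TPM with 3'-propyl ABA, against 2.64, 2.301 and 2.35 TPM with ABA, 3.27, 1.97 and 1.96 TPM with 3'-butyl ABA and 0.649, 2.62 and 3.23 TPM with DMSO. Its difference of 1.68 came down to 1.26 without DMSO replicate 1, the lowest value of any member under any omission. LECRKA4.1, a lectin receptor kinase known as a regulator of ABA responses in germination, had 17.7, 25 and 17.5 TPM with 3'-propyl ABA, against 5.502, 8.35 and 9.46 TPM with ABA, 5.31, 7.53 and 7.13 TPM with 3'-butyl ABA and 4.03, 6.27 and 7.603 TPM with DMSO. IP5PII, an inositol polyphosphate 5-phosphatase, averaged 193 ± 25.6 TPM with 3'-propyl ABA, 72.4 ± 9.43 TPM with ABA, 58.99 ± 3.91 TPM with 3'-butyl ABA and 66.3 ± 18.8 TPM with DMSO. RDUF1, a RING ubiquitin ligase, averaged 69.8 ± 10.6 TPM with 3'-propyl ABA and 17.9 ± 1.92 TPM with DMSO.

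Transcription factor genes among the members came from several families. AT1G77640, of the AP2/ERF family, had 7.49, 14.2 and 10.6 TPM with 3'-propyl ABA, against 0.616, 0.766 and 0.951 TPM with ABA, 0.572, 0.8298 and 1.54 TPM with 3'-butyl ABA and 0.803, 1.33 and 1.29 TPM with DMSO. ERF11, a repressor of the same family known to act on ethylene synthesis, had 12.2, 23.2 and 13.4 TPM with 3'-propyl ABA, against 3.11, 2.73 and 3.83 TPM with ABA, 5.42, 4.15 and 3.996 TPM with 3'-butyl ABA and 2.86, 6.26 and 5.28 TPM with DMSO, and replicate 2 was the highest 3'-propyl ABA library in both. WRKY70, which links salicylic and jasmonic acid signalling, had 14.8, 18.6 and 11.3 TPM with 3'-propyl ABA, against 5.601, 5.91 and 1.73 TPM with ABA, 3.88, 3.41 and 4.101 TPM with 3'-butyl ABA and 2.46, 4.96 and 3.302 TPM with DMSO. ABA replicate 3 was its lowest library, and WRKY70 left the set without that library. DOF1 averaged 86.3 ± 19.3 TPM with 3'-propyl ABA and 24.7 ± 3.57 TPM with DMSO. BME3, a GATA factor known as a positive regulator of seed germination, averaged 121 ± 17.9 TPM with 3'-propyl ABA, 31.4 ± 3.18 TPM with 3'-butyl ABA and 42.2 ± 7.43 TPM with DMSO. BBX32, a B-box protein of light signalling, had 2.502, 3.02 and 3.66 TPM with 3'-propyl ABA and 0.245, 0.203 and 0.828 TPM with DMSO.

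**Figure D3:**
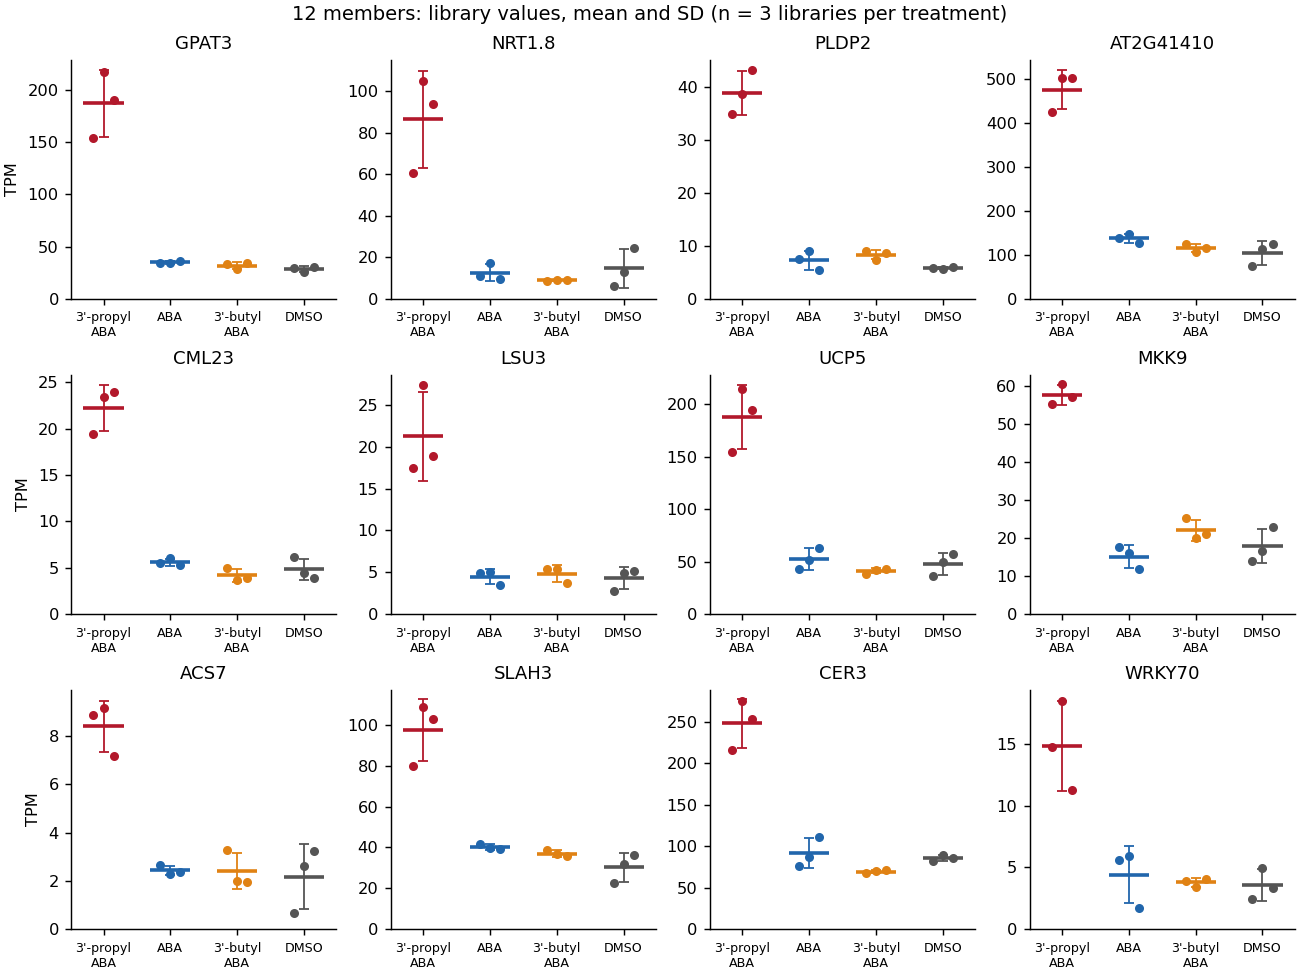
Each panel is 1 of 12 members chosen to show each role, with TPM on the y axis from 0 and the treatments on the x axis from 3'-propyl ABA to DMSO. Points are libraries, bars are means and error bars are SD (n = 3). In each panel all 3'-propyl ABA points lie above the other 9, as the choice requires. In the NRT1.8 panel the DMSO points run from 6.32 to 24.6 TPM.

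Other members came from sulfur, light, gibberellin and secondary metabolism. LSU3 (AT3G49570), a small protein gene of the low sulfur response, had 17.5, 27.4 and 18.9 TPM with 3'-propyl ABA, against 4.85, 5.03 and 3.43 TPM with ABA, 5.41, 5.42 and 3.65 TPM with 3'-butyl ABA and 2.74, 4.904 and 5.098 TPM with DMSO, where the last 9 values overlapped. SPA4, a partner of the COP1 ubiquitin ligase in the dark repression of light responses, had 24.3, 27.5 and 24.4 TPM with 3'-propyl ABA, against 11.03, 10.03 and 13.1 TPM with ABA, 10.8, 10.9 and 11.3 TPM with 3'-butyl ABA and 8.398, 8.48 and 7.21 TPM with DMSO. Every ABA and 3'-butyl ABA library of SPA4 lay above every DMSO library, by means within the bounds of the choice. GA2OX6, which inactivates gibberellins, had 37.9, 40.8 and 41.2 TPM with 3'-propyl ABA, against 14.95, 22.02 and 15.9 TPM with ABA, 13.4, 12.4 and 14.8 TPM with 3'-butyl ABA and 10.6, 11.2 and 16.5 TPM with DMSO. UGT84A1, a glucosyltransferase of hydroxycinnamic acids, had 5.61, 7.62 and 7.78 TPM with 3'-propyl ABA and 0.915, 1.67 and 1.68 TPM with DMSO. AGP1, an arabinogalactan protein of the cell surface, averaged 324 ± 24.95 TPM with 3'-propyl ABA, 133 ± 33.2 TPM with ABA and 98.2 ± 39.9 TPM with DMSO.

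The remaining members above 1 TPM have annotations that say little of their role. AT2G16630, an extensin-like protein gene, had 137, 181 and 178 TPM with 3'-propyl ABA, against 37.4, 53.2 and 86.7 TPM with ABA, 25.5, 28.4 and 32.7 TPM with 3'-butyl ABA and 38.7, 44.8 and 39.3 TPM with DMSO, and ABA replicate 3 was its highest library outside 3'-propyl ABA. AT5G47590, of the small heat shock protein family, averaged 14.5 ± 1.94 TPM with 3'-propyl ABA and 2.95 ± 0.442 TPM with DMSO. The lumazine synthase annotated AT2G30230 averaged 30.1 ± 5.095 and 7.55 ± 0.619 TPM, the glycosyltransferase AT2G41640 29.3 ± 3.02 and 8.28 ± 2.55 TPM, the phloem protein PP2-A11 70.1 ± 7.55 and 21.9 ± 3.03 TPM and AT2G25460, with an EEIG1/EHBP1 domain, 15.3 ± 2.27 and 4.53 ± 2.73 TPM, in each case with 3'-propyl ABA and with DMSO. AT2G41640 shares 1144 bases with AT2G41650 on the same strand, so its reads could not be assigned with certainty. The uncharacterized genes AT3G50800, AT3G19680 and AT5G22270 averaged 19.6 ± 4.14, 103 ± 6.57 and 62.2 ± 3.89 TPM with 3'-propyl ABA, and 4.43 ± 0.179, 29.7 ± 5.62 and 18.2 ± 4.02 TPM with DMSO. AT1G18830, a SEC31-like coat protein gene of vesicle traffic, had 1.88, 3.54 and 4.12 TPM with 3'-propyl ABA and 0.138, 0.305 and 0.443 TPM with DMSO.

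Members near the detection limit need more care. For a transcript 1 kb long, a single read corresponded to about 0.130 to 0.169 TPM. AT1G21280, annotated as a Copia-like retrotransposon, had the largest difference of all, with 9.01, 6.17 and 10.04 TPM with 3'-propyl ABA, and was listed at 0 in the other 9 libraries. It lies wholly inside WAK2, a wall-associated kinase gene on the opposite strand that was itself lower with 3'-propyl ABA (-2.66 on the log2 scale), and the strand setting of the counting is not given in the sources used here. AT5G51190, an AP2/ERF factor also named ERF105, was listed at 0 in the same 9 libraries and had 4.03, 14.7 and 0.913 TPM with 3'-propyl ABA, the lowest from an estimated 6 reads. It lies wholly inside AT5G51180 on the opposite strand, which differed by 0.06 between 3'-propyl ABA and DMSO. Both genes are uncertain for this reason, and the part of the overlaps in their values was not tested. TPS03, a terpene synthase, had 2.395, 2.099 and 2.08 TPM with 3'-propyl ABA, 0.114, 0.236 and 0.188 TPM with ABA, 0.132, 0.0548 and 0 TPM with 3'-butyl ABA and was listed at 0 in every DMSO library. The malate channel family gene AT1G08440 had 1.87, 2.23 and 1.79 TPM with 3'-propyl ABA, 0.3197, 0.332 and 0 TPM with ABA, 0.557, 0.308 and 0.0834 TPM with 3'-butyl ABA and was likewise listed at 0 with DMSO.

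A peroxidase gene, AT4G17690, had 4.18, 5.24 and 8.39 TPM with 3'-propyl ABA, against 0.112, 0.116 and 0.246 TPM with ABA, 0.1296, 0.4298 and 0.233 TPM with 3'-butyl ABA and 0, 0.201 and 0.117 TPM with DMSO, so that the 9 other libraries were all under 0.5 TPM. AT3G27809 lies wholly inside MYB21 on the opposite strand, over 987 bases, and is uncertain for the same reason as AT1G21280 and AT5G51190. It had 3.38, 3.23 and 4.89 TPM with 3'-propyl ABA, against 0, 1.33 and 2.12 TPM with ABA, 0, 0.927 and 1.34 TPM with 3'-butyl ABA and 0, 0.579 and 1.01 TPM with DMSO. The part of the overlap in its values was not tested. AT5G59230, annotated as transcription factor-like, had 1.94, 3.01 and 2.73 TPM with 3'-propyl ABA and 0, 0.187 and 0.435 TPM with DMSO, from as few as an estimated 8 reads in a 3'-propyl ABA library. The last of these genes, TPS03 and AT1G08440 were the 3 members with a mean below 1 TPM over the 12 libraries, and the other 51 were among the 19528 genes that passed that filter.

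Several features that the choice did not use were compared with all genes as a description. Of the members, 22 (40.7%) had a single annotated exon, against 20.5% of all genes and 15.9% of the 19528 genes that averaged 1 TPM or more, and the median number of exons was 2 against 4. Their median exon length was 1537 bases, against 1517 for all genes and 1729 for genes averaging 1 TPM or more. They were spread over all 5 chromosomes, with 12, 8, 13, 10 and 11 genes on chromosomes 1 to 5, and none had another member as its next annotated gene. In 17 members the annotated span overlaps a neighbour, in 13 of them on the opposite strand.

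Promoter elements were counted in 54 member windows and 27444 windows of all genes, each of 300 bases and read on both strands. The W-box core TTGAC stood in 36 member windows (66.7%), against 50.5% of all windows and 50.8% of those of genes averaging 1 TPM or more. Its longer forms TTGACT and TTGACC, which contain the core, stood in 35.2% and 18.5% of the member windows, against 21.8% and 14.2% of all. The ABA element core ACGTG stood in 20 member windows (37.0%), against 26.7% of all, and the G-box CACGTG, which contains it, in 13.0% against 7.68%. The CAMTA core CGCGT was in 13.0% of the member windows against 8.70% of all, the TGA core TGACG in 27.8% against 23.1%, the DRE core CCGAC in 11.1% against 15.1%, the GCC box GCCGCC in 5.56% against 2.57% and the TATA box TATAAA in 57.4% against 52.2%. A window without a match says only that these letters were not in it.

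Some genes next to a member were higher with 3'-propyl ABA too. Of 79 neighbours averaging 1 TPM or more, 19 (24.1%) were at least 1 above DMSO with 3'-propyl ABA, against 11.4% of all such genes, while the median over the 79 was 0.03. HAI1, a PP2C of the ABA pathway next to AT5G59230, differed from DMSO by 7.19 with 3'-propyl ABA, 6.09 with ABA and 6.24 with 3'-butyl ABA. LSU1, next to LSU3, differed by 2.84, 1.46 and 1.73 in the same order, and GPAT2, next to GA2OX6, by 3.17, 2.10 and 2.42. AT5G52760, annotated as a copper transport family gene next to AT5G52750, differed by 1.38 with 3'-propyl ABA, -0.38 with ABA and -0.40 with 3'-butyl ABA. ERF12, next to ERF11, differed by 1.25, 0.35 and 0.13.

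Relatives of the members offer values that the choice did not fix, and they were tested with limma on log2(TPM + 1), with Benjamini-Hochberg adjustment over all 19528 genes. In that fit 27.5% of genes rose and 38.5% fell with 3'-propyl ABA against DMSO, 22.0% rose and 24.7% fell with ABA, and 25.1% rose and 25.6% fell with 3'-butyl ABA. The balance turned with median-of-ratios scaling, under which 6580 genes rose and 6322 fell with 3'-propyl ABA, against 5371 and 7518 as deposited, and 4651 rose and 4461 fell with ABA, against 4295 and 4821 as deposited. With 3'-butyl ABA 5038 rose and 4889 fell under that scaling, against 4899 and 4991 as deposited. The 3 comparisons share the DMSO libraries, so a high or low DMSO value moves them together. The median over all genes was -0.12 for 3'-propyl ABA against DMSO and moved to 0.01 with median-of-ratios scaling, so that a small fall with 3'-propyl ABA lies within the reach of the scaling. The families were listed after the members were known, and within them all tested relatives were counted.

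Among 6 tested ACC synthase relatives of ACS7, 3 rose and 3 fell with 3'-propyl ABA, and 1 of these falls, that of ACS12 (-0.26), lost its call under other settings. ACS2 had 10.4, 10.6 and 11.7 TPM with 3'-propyl ABA, against 2.79, 2.83 and 2.16 TPM with ABA, 1.46, 1.21 and 0.947 TPM with 3'-butyl ABA and 2.28, 1.64 and 4.401 TPM with DMSO. It rose by 1.72 ± 0.22 (SE, adjusted p = 2.0e-05, limma) over DMSO and exceeded ABA by 1.73 ± 0.22 (adjusted p = 8.1e-05). Its 3'-butyl ABA libraries were all below its DMSO libraries. ACS6, whose protein is a target of MAP kinases, had 46.9, 54.6 and 41.7 TPM with 3'-propyl ABA, against 15.5, 15.3 and 11.6 TPM with ABA, 17.7, 19.2 and 19.1 TPM with 3'-butyl ABA and 14.3, 15.3 and 25.5 TPM with DMSO, and rose by 1.37 ± 0.19 over DMSO (adjusted p = 4.6e-05, limma). ABA and 3'-butyl ABA differed from DMSO by -0.32 and 0.07 in ACS6, without a call. ACS4 fell with all 3 compounds (-2.27, -2.04 and -2.03), and its difference between 3'-propyl ABA and ABA had an interval of -0.59 to 0.14 (95%).

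Carriers and sulfur genes showed both patterns. DIC2, a dicarboxylate carrier like UCP5, rose by 0.84 ± 0.15 with 3'-propyl ABA and fell with ABA (-2.07 ± 0.15) and 3'-butyl ABA (-1.45 ± 0.15), with adjusted p of 3.7e-04, 6.7e-07 and 9.0e-06 (limma). Its libraries measured 79.2, 121 and 87.3 TPM with 3'-propyl ABA, against 9.94, 12.4 and 12.97 TPM with ABA, 19.4, 19.9 and 16.2 TPM with 3'-butyl ABA and 47.4, 58.04 and 51.7 TPM with DMSO, with no overlap between 3'-propyl ABA and either other compound. DIC3 rose by 2.98 with 3'-propyl ABA and 1.15 with ABA, from a DMSO mean below 1 TPM, while the uncoupling protein genes UCP2 and UCP3 were not called with 3'-propyl ABA and PUMP1 fell (-0.46). LSU1 and LSU2 rose with all 3 compounds, LSU2 by 2.09 with 3'-propyl ABA, 0.84 with ABA and 0.51 with 3'-butyl ABA, and both were higher with 3'-propyl ABA than with ABA (adjusted p = 1.4e-04 and 1.3e-05, limma). LSU4 was not called.

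The relatives of SPA4 and CER3 are light signalling and wax genes. SPA1, SPA2 and SPA3 all rose over DMSO (0.82, 0.21 and 0.70), and SPA1 and SPA3 also exceeded ABA (adjusted p = 3.1e-05 and 9.4e-05, limma). SPA2 lost its call when only the 6 libraries compared were fitted (adjusted p = 0.056) or without DMSO replicate 2 (adjusted p = 0.067). Of these 3 relatives 0 rose with ABA and 2 with 3'-butyl ABA, and only 1 was higher with 3'-propyl ABA than with 3'-butyl ABA. SPA3 had 8.99, 9.50 and 7.57 TPM with 3'-butyl ABA. It had 10.7, 9.57 and 9.90 TPM with 3'-propyl ABA and 6.33, 5.37 and 5.69 TPM with DMSO. Of 11 tested wax genes of the CER3 list 6 rose and 3 fell. CER1, the partner of CER3 in alkane formation, had 528, 603 and 562 TPM with 3'-propyl ABA, against 159, 197 and 258 TPM with ABA, 133, 132 and 137 TPM with 3'-butyl ABA and 14.9, 17.9 and 14.8 TPM with DMSO. It rose with all 3 compounds, by 5.07, 3.58 and 3.01. KCS6, which elongates very long chain fatty acids for wax, rose by 1.85, 0.81 and 0.34. KCS5 and CER2 rose with 3'-propyl ABA (0.71 and 0.68) and fell with 3'-butyl ABA (-1.54 and -0.63). With ABA, KCS5 had 34.1, 38.4 and 55.0 TPM, all below its DMSO libraries (60.4, 73.8 and 69.9 TPM). CER2 had 48.0, 61.4 and 75.7 TPM with ABA, overlapping its DMSO libraries (74.2, 80.5 and 74.8 TPM).

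Other small families were divided. Among the MAP kinase kinases related to MKK9, MKK4, MKK5 and MKK3 rose with 3'-propyl ABA by 0.41, 0.45 and 0.36, MKK6 fell (-0.96), and MKK2 and MEK1 were not called. MKK4 and MKK5, which act in the immune cascade, fell with 3'-butyl ABA (-0.53 and -0.27). All 3 tested relatives of UGT84A1 rose with 3'-propyl ABA, UGT84A3 by 1.58, UGT84A2 by 1.23 and UGT84A4 by 0.94, and UGT84A2 was not called with ABA or 3'-butyl ABA. Both tested gibberellin 2-oxidase relatives of GA2OX6 fell with ABA, GA2OX2 (-1.05) and GA2OX8 (-1.47), and with 3'-propyl ABA they differed by -0.12 (not called) and -0.71. SLAH2, a relative of SLAH3, fell with all 3 compounds (-1.99, -1.50 and -1.41). Of 24 tested GATA factors other than BME3, 1 rose and 13 fell with 3'-propyl ABA, with GATA6 at -1.51. LECRKA4.2 rose with every compound (1.64, 0.85 and 1.06) and LECRKA4.3 was not called.

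**Figure D4:**
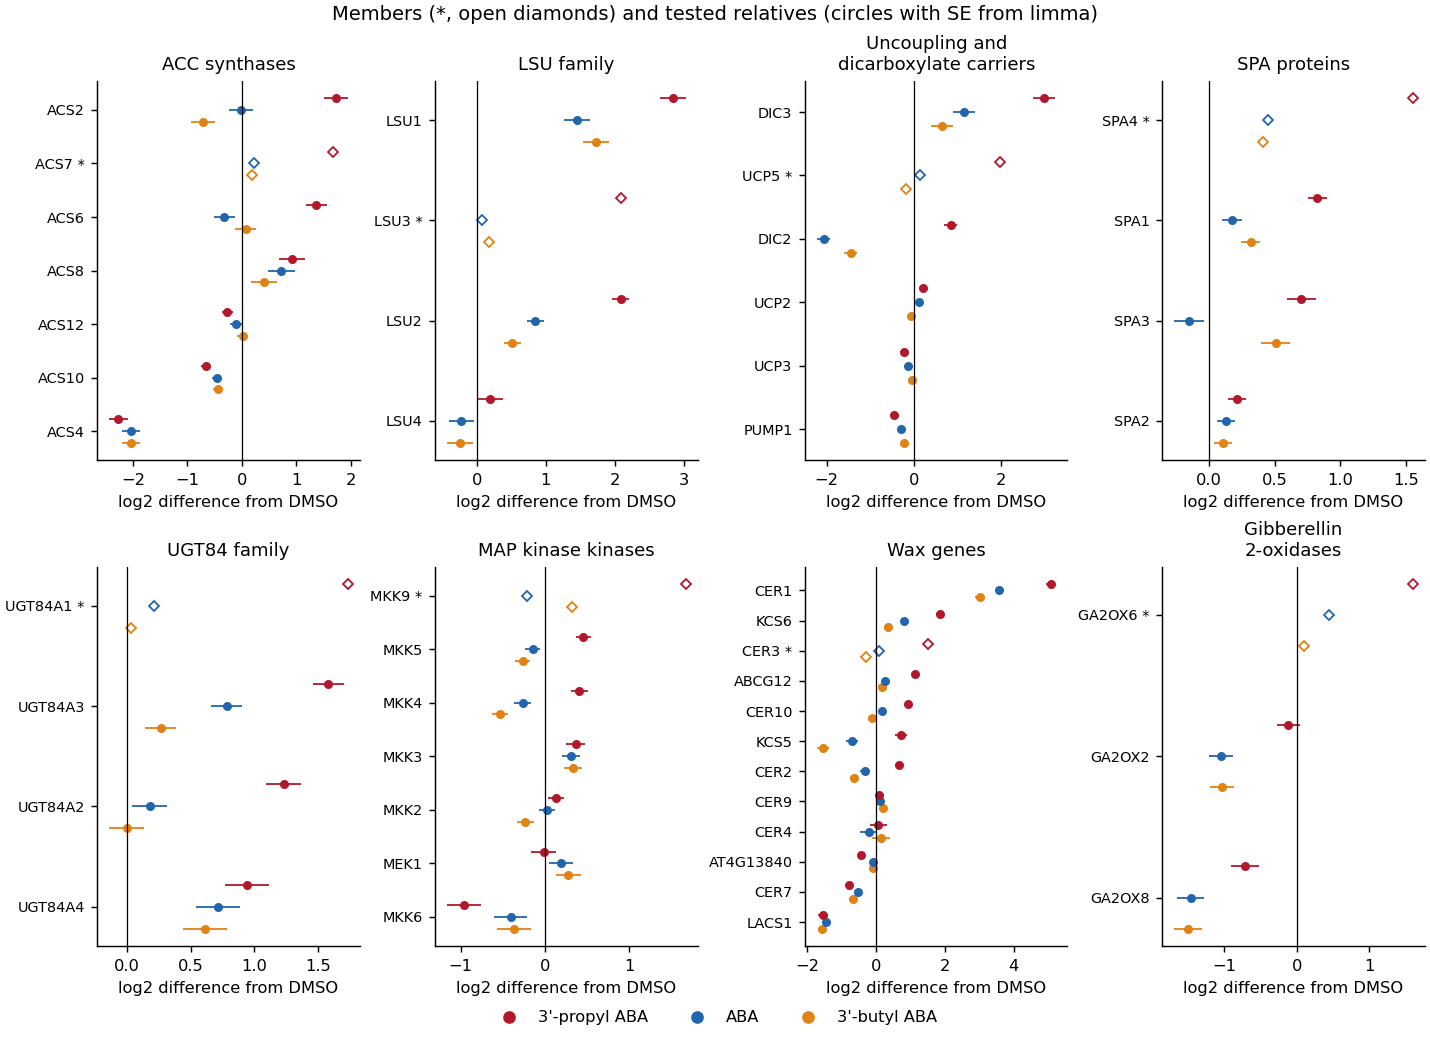
Each panel is a family that holds a member. The x axis is the difference from DMSO in mean log2(TPM + 1), with 3'-propyl ABA in red, ABA in blue and 3'-butyl ABA in orange, and genes run down the y axis by their 3'-propyl ABA value. Circles with SE bars are tested relatives, open diamonds and asterisks mark members, which were chosen for this pattern. ACS2 and ACS6 lie beside ACS7 with 1.72 and 1.37 in red and values of 0.07 or less in blue and orange. In orange ACS2 lies below DMSO, with 1.46, 1.21 and 0.947 TPM against 2.28, 1.64 and 4.40 TPM. DIC2 has opposite signs, 0.84 in red against -2.07 in blue and -1.45 in orange.

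Larger families were mixed. Of 8 tested GPAT relatives 5 rose and 2 fell with 3'-propyl ABA, and the suberin gene GPAT5 rose with all compounds (4.70, 3.75 and 3.74). Of 11 tested phospholipase D relatives 7 rose and 1 fell, where the rises of PLDGAMMA2 and PLDGAMMA3 lost their call under several alternatives, among them leaving out DMSO replicate 2 (adjusted p = 0.18 each, limma), with PLDDELTA at 2.16 with 3'-propyl ABA and 1.41 with ABA. Of 22 tested NRT1/PTR relatives 9 rose and 7 fell, of 37 EF-hand genes 11 rose and 7 fell, and of 65 AP2/ERF genes 19 rose and 21 fell (19 and 18 with median-of-ratios scaling). Among the 37 EF-hand genes 4 rose and 9 fell with ABA and 4 rose and 11 fell with 3'-butyl ABA. Their values nearest the member pattern were those of AT4G27280, which differed by 2.78 with 3'-propyl ABA, -0.60 with ABA and -0.93 with 3'-butyl ABA, and of AT3G29000, with 1.67, -0.94 and -0.60. Both were lower than DMSO with the other compounds by more than the bound and were named after their values were seen. Of 27 tested arabinogalactan protein genes 9 rose and 9 fell, of 26 B-box genes 9 rose and 8 fell (13 and 6 with median-of-ratios scaling), of 17 terpene synthases 4 rose and 5 fell (5 and 4 with either other scaling), of 50 peroxidases 13 rose and 16 fell (15 and 15 with median-of-ratios scaling) and of 32 heavy metal superfamily genes 14 rose and 13 fell. Of 15 amino acid transporter relatives 9 rose and 5 fell, of 9 phloem protein relatives 4 and 3, of 5 GDPD relatives 2 and 1 and of 4 NRAMP relatives 2 and 1. Of 8 malate channel relatives 4 rose and 0 fell, but ALMT1 (0.84) and AT1G68600 (0.42) lost their call under 6 and 7 alternatives, among them leaving out DMSO replicate 3 (adjusted p = 0.11 and 0.15, limma). Among the phloem protein relatives the rise of PP2-A15 (0.33) lost its call under 5 alternatives, among them leaving out DMSO replicate 1 (adjusted p = 0.11, limma).

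Lists of pathway genes were tested in the same way. Over 22 lists, 693 genes that are no members were tested, and 320 rose and 176 fell with 3'-propyl ABA, beside 27.5% and 38.5% of all genes. Members stood in 7 lists: WRKY70 in those of WRKY factors and of salicylic acid and systemic immunity, UGT84A1 among the UGT glycosyltransferases, MKK9 in the MAP kinase cascade, CML23 among the calmodulin-like proteins, ERF11 and AT5G51190 among the ERF factors and LSU3 in sulfur starvation. In these 7 lists the other genes split as follows with 3'-propyl ABA. Of 52 WRKY genes 21 rose and 14 fell, of 13 salicylic acid genes 2 rose and 6 fell, of 52 UGT genes 24 rose and 7 fell, and of 44 MAP kinase cascade genes 16 rose and 10 fell. Of 10 calmodulin-like genes 3 rose and 4 fell, of 21 ERF genes 8 rose and 6 fell and of 11 sulfur starvation genes 6 rose and 2 fell. The medians were 0.26, -0.35, 0.39, 0.04, 0.44, 0.32 and 0.38 in the order given. In the same order 13, 0, 20, 9, 0, 4 and 5 genes rose with ABA and 12, 6, 5, 6, 5, 9 and 0 fell. With 3'-butyl ABA 14, 3, 19, 12, 0, 5 and 5 rose and 7, 6, 4, 6, 6, 6 and 1 fell.

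Named genes of these lists differed between 3'-propyl ABA and ABA in both directions. ERF5, an activator of wound and chitin responses, had 31.5, 45.03 and 32.5 TPM with 3'-propyl ABA, against 4.55, 4.49 and 2.33 TPM with ABA, 6.05, 4.38 and 4.63 TPM with 3'-butyl ABA and 6.39, 8.61 and 6.52 TPM with DMSO. It rose by 2.18 ± 0.21 with 3'-propyl ABA (adjusted p = 1.6e-06, limma), fell with ABA (-0.80 ± 0.21, adjusted p = 0.008) and stood 2.98 ± 0.21 above ABA (adjusted p = 1.4e-06). The 3 other ERF genes with the largest changes fell with 3'-propyl ABA. ERF53 had 0, 0.2404 and 0.437 TPM with 3'-propyl ABA, against 7.74, 3.46 and 4.62 TPM with ABA, 5.62, 3.52 and 5.05 TPM with 3'-butyl ABA and 5.61, 3.59 and 2.596 TPM with DMSO, and differed from ABA by -2.31 ± 0.28 (adjusted p = 5.2e-05, limma). EBP fell with all compounds (-1.92, -1.07 and -0.84) and was lower with 3'-propyl ABA than with ABA (-0.86 ± 0.19, adjusted p = 0.004, limma). ERF73 also fell with all compounds (-2.52, -2.13 and -1.34), and its difference between 3'-propyl ABA and ABA had an interval of -1.30 to 0.51 (95%). STZ, a zinc finger repressor from the list of mitochondrial and oxidative stress, had 113, 167 and 131 TPM with 3'-propyl ABA, against 20.2, 25.5 and 14.6 TPM with ABA, 22.7, 25.6 and 23.7 TPM with 3'-butyl ABA and 22.2, 27.8 and 43.5 TPM with DMSO, and exceeded ABA by 2.73 ± 0.25 (adjusted p = 1.5e-05, limma). CML11 rose with 3'-propyl ABA (1.33, adjusted p = 1.2e-04) and CML42, TCH3 and CML43 fell (-3.91, -1.75 and -1.41). For TCH3 the difference between 3'-propyl ABA and ABA had an interval of -0.53 to 0.52 (95%) and was not called. MAPKKK18 rose with all compounds, by 5.34, 4.01 and 3.68.

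More proteasome and endoplasmic reticulum stress genes rose with 3'-propyl ABA than with either other compound. Of 35 tested subunits of the 26S proteasome, which degrades ubiquitin-tagged proteins, 20 rose and 2 fell with 3'-propyl ABA, 3 rose and 2 fell with ABA, and 0 rose and 15 fell with 3'-butyl ABA (0 and 10 with median-of-ratios scaling). The medians were small, 0.23, 0.03 and -0.17. Set against each other, 29 subunits were higher and 0 lower with 3'-propyl ABA than with 3'-butyl ABA, and 18 higher and 0 lower than with ABA, beside 17.6% and 15.5% of all genes that were higher. The alpha subunit gene PAA2 had 115, 118 and 111 TPM with 3'-propyl ABA, against 81.5, 94.5 and 76.2 TPM with ABA, 66.8, 64.3 and 67.03 TPM with 3'-butyl ABA and 62.6, 66.7 and 72.3 TPM with DMSO, and differed from ABA by 0.45 ± 0.08 and from 3'-butyl ABA by 0.79 ± 0.08 (adjusted p = 8.9e-04 and 1.1e-05, limma). Of 19 tested genes of the endoplasmic reticulum stress response 14 rose and 2 fell with 3'-propyl ABA, 6 rose and 1 fell with ABA and 2 rose and 3 fell with 3'-butyl ABA. BZIP60, the factor activated by IRE1 splicing in that response, rose by 1.05 ± 0.10 with 3'-propyl ABA (adjusted p = 1.8e-06, limma) and differed from DMSO by 0.15 with ABA and 0.19 with 3'-butyl ABA, without a call.

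**Figure D5:**
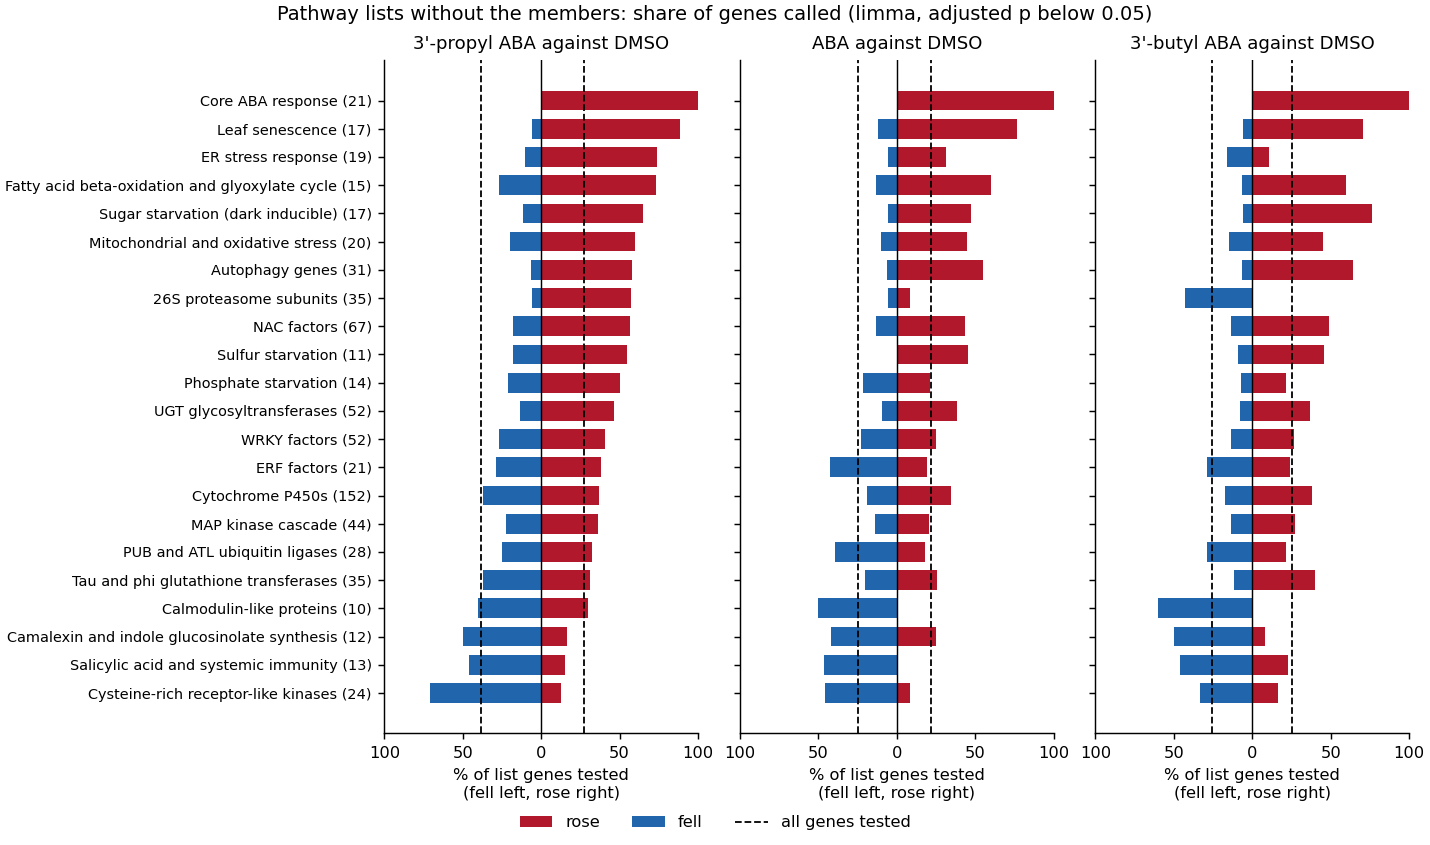
Bars give the share of each list's tested genes (their number in parentheses, members left out) that rose (right) or fell (left) with 3'-propyl ABA, ABA and 3'-butyl ABA against DMSO (limma, adjusted p below 0.05). Dashed lines give the shares over all 19528 genes, 27.5% and 38.5% for 3'-propyl ABA, a balance that turned to 6580 genes that rose and 6322 that fell with median-of-ratios scaling. All core ABA genes rose with each compound, and the proteasome bar points right with 3'-propyl ABA and left with 3'-butyl ABA.

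The other lists are given as counts of genes that rose and fell with 3'-propyl ABA, beside 27.5% and 38.5% of all genes. All 21 core ABA response genes rose with each of the 3 compounds, and 18 of them were higher with 3'-propyl ABA than with ABA, 0 lower, with LEA4-5 at 8.61 over DMSO with 3'-propyl ABA, 7.23 with ABA and 6.84 with 3'-butyl ABA. Of 17 leaf senescence genes 15 rose and 1 fell, with SAG29 at 7.03, 4.01 and 3.27. Of 67 NAC genes 38 rose and 12 fell, of 31 autophagy genes 18 and 2, of 20 mitochondrial and oxidative stress genes 12 and 4, of 15 beta-oxidation and glyoxylate genes 11 and 4 and of 17 sugar starvation genes 11 and 2. Such rises were not particular to 3'-propyl ABA. From senescence to sugar starvation, in that order, 13, 29, 17, 9, 9 and 8 genes rose with ABA and 2, 9, 2, 2, 2 and 1 fell. With 3'-butyl ABA 12, 33, 20, 9, 9 and 13 rose and 1, 9, 2, 3, 1 and 1 fell. Phosphate starvation genes, the setting in which PLDP2 is known, split into 7 that rose and 3 that fell of 14, with the phosphatase gene PS2 at 3.91 with 3'-propyl ABA, 1.88 with ABA and 1.93 with 3'-butyl ABA. Of 152 cytochrome P450 genes 56 rose and 56 fell (63 and 54 with median-of-ratios scaling), of 35 glutathione transferases 11 and 13 (11 and 11 with that scaling) and of 28 PUB and ATL ubiquitin ligases 9 and 7. Of 24 cysteine-rich receptor-like kinases 3 rose and 17 fell, and of 12 genes of camalexin and indole glucosinolate synthesis 2 rose and 6 fell. Of these kinases 2 rose and 11 fell with ABA, and 4 rose and 8 fell with 3'-butyl ABA. In the camalexin list 3 rose and 5 fell with ABA, and 1 rose and 6 fell with 3'-butyl ABA. Between compounds over all genes, 3021 were higher and 5148 lower with 3'-propyl ABA than with ABA, a split that turned to 4157 and 3491 under median-of-ratios scaling, and 3431 were higher and 6100 lower than with 3'-butyl ABA, against 4825 and 4193 under that scaling.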

How the data were processed

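Poly(A) RNA of Col-0 seedlings was sequenced in 12 libraries, 3 per treatment, strand-specific and paired-end, per the labels' protocols. The authors deposited 1 value of TPM per gene and library for 27655 genes. The submitters' processing notes name bcl2fastq and TAIR10, and the aligner, the counter and its strand setting were not given in the sources used here. Low values step by what 1 read is worth, which gave an estimated depth of 9.43 to 12.2 M reads, with 83.5% to 86.6% of low values within 0.05 of a whole number of reads, so no count test was run. Means were taken of log2(TPM + 1). The members and all lists of genes were chosen with earlier results of these data known. The pathway, marker and family lists were tested with limma 3.58.1 in R 4.3.3, in a fit of all 4 treatments with 8 residual degrees of freedom, on 19528 genes averaging 1 TPM or more, and a gene was called at a Benjamini-Hochberg adjusted p below 0.05. The fit was also run on simulated data with 1 setting of spread for all genes and no replicate effects. Such data cannot check the calls made in these libraries. The comparisons of 3'-propyl ABA with ABA and with 3'-butyl ABA, and the count without 2 libraries, were added after the data were seen. The rule for named genes took the members with the largest difference, members of each list and class, the genes at each threshold and up to 4 called genes per pathway list by absolute fold change. Named neighbours and family relatives are outside it and were chosen after their values were seen. Gene names, spans and promoters are those of RefSeq (TAIR10.1), which held 27445 of the gene IDs. Alternatives tried were median-of-ratios and quantile scaling, a pseudocount of 0.1, no filter on low genes, other bounds, a fit of 6 libraries, a replicate block and leaving out each library. Python 3.11.15, pandas 2.3.3, numpy 2.4.6 and matplotlib 3.10.9 were used.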

Additional observations from a re-analysis of the deposited data

How the results depend on the processing

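The size of the set follows the bounds. A bound of 1 on ABA and 3'-butyl ABA gave 262 genes and one of 0.25 gave 22, and a minimum of 1 for 3'-propyl ABA gave 219 and one of 2 gave 12, against 54 as reported. Median-of-ratios scaling gave 75 genes (50 of them shared), quantile normalization 65 (48 shared) and a pseudocount of 0.1 gave 70 (43 shared, without NRT1.8 and PLDP2). Leaving out 1 library gave 46 to 71. Of 1080 recomputed differences of members from DMSO, 1059 moved by less than 1 SD, 21 moved by more and 0 changed sign, within 1.26 to 6.38. The choice placed every 3'-propyl ABA library above every DMSO library, so leaving out a library could not change a sign. Leaving out 1 library also cannot move a mean of 3 by 1 SD, and ABA and 3'-butyl ABA libraries do not enter these differences. Nothing is therefore read from these counts. Over all genes, leaving out 1 library gave 4842 to 5459 that rose and 6908 to 7607 that fell with 3'-propyl ABA, 3523 to 4503 and 3990 to 4802 with ABA, and 3959 to 5217 and 4251 to 5082 with 3'-butyl ABA. Against ABA the counts with 3'-propyl ABA were 2532 to 3157 higher and 4020 to 5378 lower, and against 3'-butyl ABA 2910 to 3547 higher and 4851 to 6387 lower. In the pathway lists 296 to 329 rose and 159 to 179 fell. Same-numbered libraries deviated together in 9 of 18 pairs of groups (correlation above 0.1), from -0.168 to 0.329. All 6 pairs of replicate 1 were above 0.1 (0.116 to 0.329), against 3 of 6 for replicate 2 and 0 of 6 for replicate 3. The replicate 1 libraries thus shared part of their deviation, and its source was not tested. The main fit did not pair libraries by number. With the replicate number as a block 5449 genes rose and 7618 fell with 3'-propyl ABA. Of 152 named genes that are no members, 9 lost a call under at least 1 alternative, among them ALMT1, PLDGAMMA2, PLDGAMMA3 and SPA2, and 0 changed sign. The depth limits the members below 1 TPM.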
